A study of Mus musculus with 6 samples.

Results

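The epidermal differentiation complex is a cluster of genes that build and line the outer layers of stratified squamous epithelium. Its members were taken by symbol: every symbol starting with S100a and a digit, with Sprr or with Lce, together with Lor, Ivl, Rptn, Hrnr, Flg2 and Crnn, with 1 transcript row kept per symbol. This gave 56 of the 24063 gene symbols in the files, made up of 14 S100a, 15 Sprr and 21 Lce genes, the 2 envelope precursors Lor and Ivl, and the 4 fused S100-type genes Crnn, Flg2, Hrnr and Rptn. All 56 lie on chromosome 3 of the mouse build GRCm38.p6 (mm10), between positions 90511034 and 93564645, with S100a1 at one end and S100a10 at the other. Of the 56, 54 had enough counts to be tested, among 16336 genes tested in all; S100a2 and S100a5 were left out, with at most 15 counts in any sample.

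RNA was sequenced from 3 SA penile tumors and from normal penile tissue of age-matched wild type C57BL/6 mice (WT, 3 samples), all 5 months old. The labels give the tumors as those of 3 mice and do not say that each WT sample is a separate mouse, so p-values measure the spread between these samples. SA mice carry PB-Cre (the PB-Cre4 line in the study's methods) with floxed Smad4 and Apc (PB-Cre+ Smad4L/L ApcL/L), so both genes are deleted where the androgen-responsive probasin promoter drives Cre, which in these mice includes penile epithelium; the WT mice are labelled only as wild type. The tumors arose without carcinogen. The gene rows of a sample summed to between 23828283 and 110509147 counts, SA tumor 3 being the deepest, so a floor of 3 counts stands at 0.0244 to 0.137 CPM, for counting error only. Both groups are bulk tissue, so fewer cells of a type and less RNA per cell cannot be told apart in any difference below. Smad4 was measured at 36.6, 36.1 and 46.1 CPM (counts per 1000000 counts of the library, scaled by TMM) in the SA tumors and 61.2, 69.7 and 72.5 CPM in the WT samples. Apc went the other way, with 253, 194 and 197 CPM against 62.5, 85.3 and 91.1; counts over a whole transcript do not single out a deleted exon, so the Apc value does not check the genotype label.

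Keratinocytes that leave the basal layer switch on many of these genes in sequence and crosslink many of their products by transglutaminases into the cornified envelope, the protein shell that replaces the plasma membrane. Loricrin, involucrin, the small proline-rich (Sprr) proteins and the late cornified envelope (Lce) proteins are envelope precursors, with the Sprr proteins acting as short bridges between the others. The fused S100-type proteins combine a calcium-binding start with long repeats and sit in the keratohyalin and envelope, while the S100 proteins are small calcium-binding proteins; S100a8 and S100a9 pair to form calprotectin, abundant in neutrophils and in injured or inflamed keratinocytes. The cluster is best known in skin, where squamous regenerative states raise Sprr2 and S100a8/S100a9 genes and cornifying epidermis is rich in Lor.

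Promoters of Sprr2b, Sprr2f, Sprr2k, Sprr1b, Sprr1a, Lor and Hrnr are shown here. Most Sprr2 genes with an entry shared a promoter layout, Sprr2d among them, which did not pass the thresholds. Of the motifs marked below, the neighbours Sprr1a and Sprr1b held the TATA box and the AP-1 motif but not the octamer. Sprr1b was nonetheless higher in SA tumors (log2 fold change 1.32). A link between the layout and the direction of change was not tested. The sequences are from RefSeq on GRCm38.p6, 5′ to 3′ on the gene's strand. Capitals mark the TATA box (TATAAA), the AP-1 motif (TGANTCA) and the octamer (ATTTGCAT), the last searched only after the sequences had been seen.
Sprr2b (chr3:92316495-92316704, plus strand): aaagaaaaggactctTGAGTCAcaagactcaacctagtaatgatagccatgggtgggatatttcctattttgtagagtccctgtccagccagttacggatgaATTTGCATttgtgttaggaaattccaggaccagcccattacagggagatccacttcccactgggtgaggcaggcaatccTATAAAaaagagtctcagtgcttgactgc
Sprr2f (chr3:92364977-92365186, plus strand): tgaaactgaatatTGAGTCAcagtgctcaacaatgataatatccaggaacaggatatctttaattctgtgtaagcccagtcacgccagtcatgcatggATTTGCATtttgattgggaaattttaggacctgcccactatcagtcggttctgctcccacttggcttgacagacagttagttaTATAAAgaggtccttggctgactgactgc
Sprr2k (chr3:92432372-92432581, plus strand): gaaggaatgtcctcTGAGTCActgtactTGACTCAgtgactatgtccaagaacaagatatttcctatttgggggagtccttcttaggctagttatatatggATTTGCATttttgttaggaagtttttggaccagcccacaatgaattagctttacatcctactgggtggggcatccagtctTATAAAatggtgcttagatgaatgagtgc
Sprr1b (chr3:92438780-92438989, minus strand): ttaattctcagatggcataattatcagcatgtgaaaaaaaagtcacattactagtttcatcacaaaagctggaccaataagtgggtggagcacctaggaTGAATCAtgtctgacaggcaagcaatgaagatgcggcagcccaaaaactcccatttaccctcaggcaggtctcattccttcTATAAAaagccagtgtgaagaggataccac
Sprr1a (chr3:92485882-92486091, minus strand): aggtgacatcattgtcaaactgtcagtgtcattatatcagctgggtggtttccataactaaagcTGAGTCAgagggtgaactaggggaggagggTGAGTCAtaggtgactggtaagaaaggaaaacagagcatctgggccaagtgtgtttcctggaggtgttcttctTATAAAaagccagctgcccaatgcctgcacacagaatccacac
Lor (chr3:92083143-92083352, minus strand): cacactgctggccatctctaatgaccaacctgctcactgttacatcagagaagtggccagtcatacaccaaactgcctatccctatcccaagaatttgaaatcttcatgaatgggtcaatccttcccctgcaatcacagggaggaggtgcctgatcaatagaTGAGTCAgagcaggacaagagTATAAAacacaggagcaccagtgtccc
Hrnr (chr3:93319539-93319748, plus strand): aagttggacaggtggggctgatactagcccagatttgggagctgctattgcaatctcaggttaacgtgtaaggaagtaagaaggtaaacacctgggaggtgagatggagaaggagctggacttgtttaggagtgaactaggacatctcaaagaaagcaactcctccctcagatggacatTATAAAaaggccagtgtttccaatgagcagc

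Promoters from 250 bases before to 50 bases after the listed start were found for 50 of the 56 member symbols, in 54 rows; Lce1f, S100a10, S100a14, S100a2, Sprr2g and Sprr2j-ps had no entry. All 3 motifs, searched on both strands, were present in 7 of the 9 Sprr2 promoters. The 2 without them belonged to Sprr2a1 and Sprr2a2. In the 7, the TATA box began 29 bases before the start in every case and the AP-1 motif began between 193 and 198 bases before it, except that Sprr2k held a further AP-1 match at 182. Of all 32851 promoters of the same length, 13.6% held the TATA box, 7.81% the AP-1 motif and 1.74% the octamer. The 7 Sprr2 promoters were 60.1% to 89.3% identical to each other (median 65.8% over 21 pairs) and 47.7% to 55.3% identical to those of Sprr1a, Sprr1b and Sprr3 (median 51.2%), so a shared motif between Sprr2 genes is not an independent match. Sprr1a and Sprr1b held the AP-1 motif at other distances, and Lor held it 48 bases before its start, whereas none of the 13 Lce1 promoters and none of the 6 Lce3 promoters held it. Among the other motifs searched, CTTTGAT (TCF/LEF) occurred in 2 of the 54 rows (3.73% of all promoters). The short Smad-binding element CAGAC occurred in 26 (49.6% of all). All 9 Sprr2 promoters held CAGAC, with or without the shared layout, at differing positions before or after the start. CCGGAAGT (Ets) occurred in 0 rows, GGGTGTGG (Klf) in 1, AACNGGTT (Grhl) in 3 and TTGCNNAA (C/EBP) in 5, against 3.89%, 3.56%, 2.09% and 10.8% of all promoters. A match is a string of letters in the window and says nothing of binding in these tissues.

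Members of the complex moved in both directions, with Sprr2 genes, S100a8 and S100a9 higher in SA tumors and Lor, Hrnr, Sprr1a and a run of Lce1 genes lower. Past an adjusted p of 0.01 and a fold change of 4 (2 on the log2 scale; edgeR's quasi-likelihood test, adjusted by Benjamini-Hochberg over all genes tested), 13 of the 54 tested members were higher in SA tumors (24.1%, against 9.41% of all genes tested) and 8 were lower (14.8%, against 3.59%). The 13 were 8 Sprr2 genes, S100a3, S100a8, S100a9, Lce6a and Lce1m. The 8 were Sprr1a, Lor, Hrnr, Lce3f and the 4 neighbours Lce1i, Lce1j, Lce1k and Lce1l. At an adjusted p under 0.01 with any fold change, 41 members differed (75.9%, against 37.6% of all genes), 16 of them higher and 25 lower in SA tumors. In 47 members (87.0%, against 63.4% of all genes) the 3 SA values and the 3 WT values did not overlap. The median log2 fold change of the 54 was −0.76, and that of all genes tested was 0.03. Leaving out WT penis 3 raised the number of lower members from 8 to 13, leaving out SA tumor 2 raised it to 12, and leaving out WT penis 2 took the higher members from 13 to 9; scaling by library totals alone, which shifts the median of all genes to 0.31, gave 14 higher and 5 lower.

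**Figure D1:**
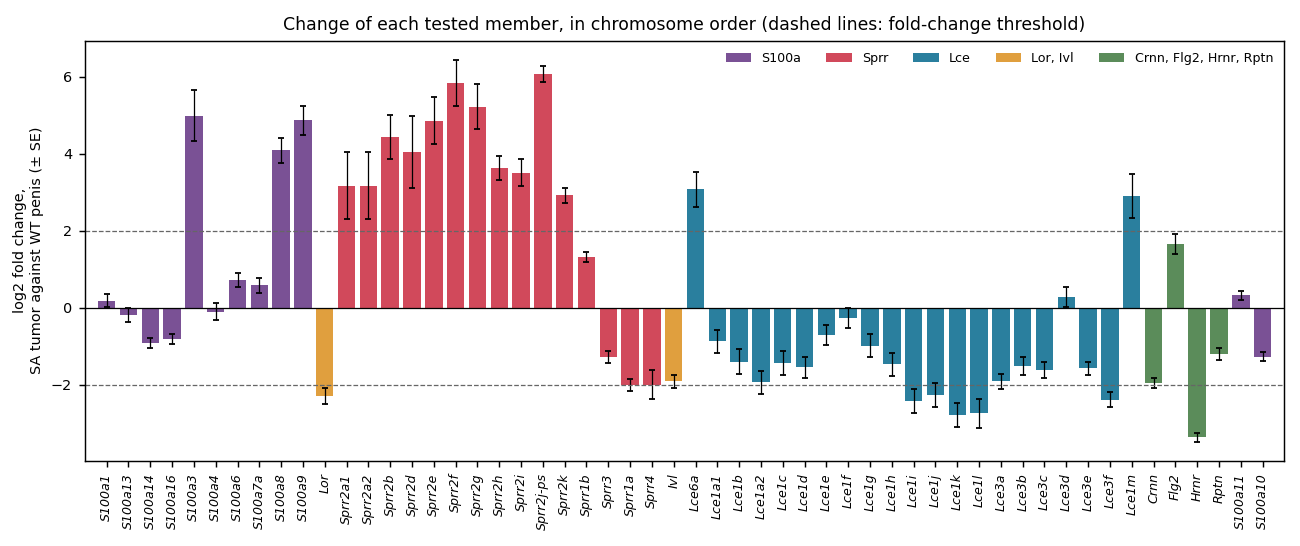
Log2 fold change between SA tumors and WT samples, positive where tumors are higher (vertical axis, with standard error) for the 54 tested members in chromosome order, coloured by family, with dashed lines at 2 and −2. The block of Sprr2 genes is above 0 throughout, between 2.92 and 6.07, while 18 of the 21 Lce genes, Lor, Ivl, Crnn, Hrnr and Rptn are below it.

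Summed over all members, SA tumors held 11815 ± 861 CPM (SD, n = 3) and WT samples 23185 ± 2180 CPM. The largest differences in mean CPM were those of Rptn (2489 against 5763 CPM), Sprr1a (1063 against 4269), Hrnr (281 against 2883) and Lor (564 against 2748), SA tumors first. Per kilobase of transcript, the highest members in WT samples were Sprr1a at 5404, Lor at 1545, Rptn at 1390 and Lce3f at 1160 CPM per kb. In SA tumors they were S100a9 at 2002, S100a8 at 1997, S100a6 at 1536 and Sprr1a at 1346 CPM per kb.

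**Figure D2:**
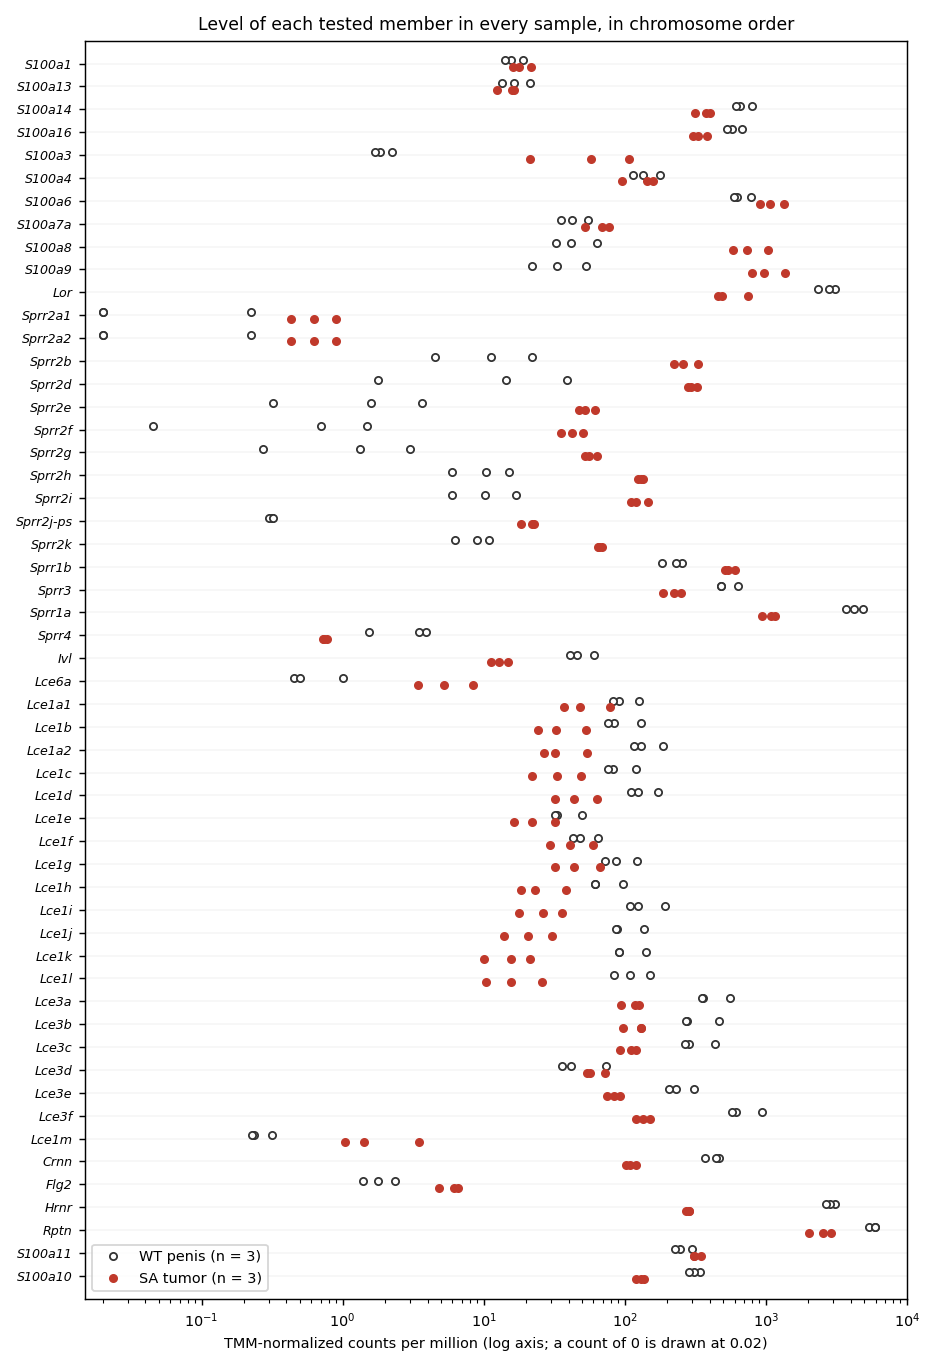
TMM-normalized CPM (horizontal log axis, counts of 0 drawn at 0.02) of each tested member in the 3 WT samples (open circles) and the 3 SA tumors (filled circles), in chromosome order. The 2 groups are separate in 47 of the 54 rows, and the WT values of several Sprr2 genes spread over more than a factor of 10 while the SA values lie close together.

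Lor and Ivl, the classic envelope precursors, were both lower in SA tumors. Lor, which encodes loricrin, the main protein of the epidermal envelope, was at 490, 745 and 458 CPM in the SA tumors and at 3093, 2344 and 2806 CPM in the WT samples. The lowest WT value was thus over 3 times the highest SA value, and Lor fell (log2 fold change −2.28, SE 0.210, adjusted p = 5.00e-05). Ivl, which encodes involucrin, the scaffold laid down first in the envelope, was at 11.2, 15.0 and 12.8 CPM against 60.3, 46.0 and 41.0 CPM. The Ivl groups did not overlap either, with a log2 fold change of −1.92 (SE 0.175, adjusted p = 4.84e-05) that missed the fold threshold. Ivl passed it without SA tumor 2 (−2.03) or WT penis 3 (−2.05), and Lor stood at −1.998, just short of it, when scaled by library totals alone.

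Of the 4 fused S100-type genes, Hrnr changed most. Hrnr encodes hornerin, a filaggrin-like repeat protein of the cornified layer, and was at 287, 284 and 272 CPM in the SA tumors and at 3117, 2867 and 2666 CPM in the WT samples. Each group was tight and they lay about 10-fold apart; Hrnr fell (log2 fold change −3.36, SE 0.118, adjusted p = 1.04e-06) and passed the thresholds under each of the 17 alternative settings tried. Rptn, which encodes repetin, was at 2537, 2910 and 2022 CPM in SA tumors and 5399, 5970 and 5919 CPM in WT samples. It was lower in each SA tumor than in any WT penis by a smaller margin (log2 fold change −1.21, SE 0.154, adjusted p = 0.000289). Crnn, which encodes cornulin, a protein best known from the wet squamous epithelium of the esophagus, was at 102, 120 and 108 CPM against 463, 447 and 370 CPM, without overlap. Its log2 fold change of −1.95 (SE 0.123, adjusted p = 7.36e-06) passed the fold threshold without SA tumor 2 (−2.02) or WT penis 3 (−2.07). Flg2, which encodes filaggrin-2, ran against the other 3 at a low level, with 4.83, 6.62 and 6.20 CPM in SA tumors and 1.40, 2.37 and 1.78 CPM in WT samples. Every SA value of Flg2 was above every WT value (log2 fold change 1.66, SE 0.260, adjusted p = 0.000883).

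The Sprr family split into a block that rose and a set of neighbours that did not. The 11 Sprr2 rows all stood higher in SA tumors, their log2 fold changes running from 2.92 to 6.07 (median 4.04). Of the 11, 8 passed the thresholds (72.7%, where 9.41% of all genes tested rose). The summed level of the 11 was 1183, 1023 and 1005 CPM in the SA tumors and 111, 61.0 and 25.5 CPM in the WT samples, or 1070 ± 97.8 CPM against 65.8 ± 42.9 CPM (SD, n = 3). The 3 SA tumors were close to one another while the WT samples differed by over 4-fold, WT penis 1 being the highest. Sprr2b was at 332, 260 and 222 CPM in SA tumors and 22.0, 11.2 and 4.56 CPM in WT samples (log2 fold change 4.43, SE 0.570, adjusted p = 0.000975). Sprr2f was at 42.6, 35.6 and 50.3 CPM against 1.49, 0.701 and 0.0456 CPM, the last being a single count; its log2 fold change was 5.84 (SE 0.595). Sprr2g was at 63.9, 52.7 and 56.0 CPM against 3.03, 1.34 and 0.273 CPM, a log2 fold change of 5.22 (SE 0.576). None of the 3 genes overlapped between the groups, as was so for 63.4% of all genes tested. The annotated pseudogene Sprr2j-ps had the largest change of all members, at 22.2, 18.4 and 22.7 CPM against 0.316, 0.300 and 0.319 CPM (log2 fold change 6.07, SE 0.203, adjusted p = 8.64e-07). Unlike Sprr2f and Sprr2g it varied little among the WT samples. Its WT values rest on 7, 9 and 7 counts, so this evenness and the size of the change are less certain.

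The other Sprr2 genes that rose were Sprr2e (log2 fold change 4.86), Sprr2h (3.63), Sprr2i (3.51) and Sprr2k (2.92). Sprr2k was the most even of them, at 65.7, 69.1 and 65.0 CPM against 9.04, 10.9 and 6.29 CPM. Sprr2d was at 324, 282 and 296 CPM in SA tumors, but its WT values of 38.8, 14.4 and 1.78 CPM spread widely; the log2 fold change of 4.04 (SE 0.932) had an adjusted p of 0.0117 and missed the threshold, which it passed without WT penis 1 (5.17, adjusted p = 0.00669) or WT penis 3 (3.47, adjusted p = 0.00277). Without WT penis 2 the adjusted p of Sprr2b (log2 fold change 4.32) was 0.0113 and that of Sprr2e (4.73) was 0.0121, so both then missed it too. Sprr2a1 and Sprr2a2 held identical counts in all 6 samples and shared 94.2% and 94.6% of their 76-base windows with other transcripts, so the 2 rows cannot be told apart and count as 1 measurement. Their level was under 1 CPM in every sample, with an adjusted p of 0.0158; without WT penis 1, where alone among WT samples they had any count, it was 0.00404.

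Sprr1a and Sprr1b, 2 close relatives that lie on either side of Sprr3, went in opposite directions. Sprr1a was at 942, 1154 and 1093 CPM in SA tumors and at 4887, 4199 and 3722 CPM in WT samples. It fell (log2 fold change −2.01, SE 0.147, adjusted p = 1.56e-05) at the very edge of the fold threshold, and missed it without SA tumor 1 (−1.93) or WT penis 1 (−1.91) and when scaled by library totals alone (−1.72), among 6 of the 17 alternatives. Sprr1b was at 539, 607 and 517 CPM in SA tumors and 253, 230 and 184 CPM in WT samples, with a log2 fold change of 1.32 (SE 0.140, adjusted p = 0.000104). Neither gene overlapped between the groups. The ratio of Sprr1a to Sprr1b CPM within a library, which does not depend on the scaling, was 1.75, 1.90 and 2.12 in the SA tumors and 19.3, 18.2 and 20.3 in the WT samples. The 2 sets of ratios were 10-fold apart, at 1.92 ± 0.184 against 19.3 ± 1.03 (SD, n = 3). The exact two-sided permutation p was 0.1, the smallest that 3 against 3 samples allow, or 0.136 after Benjamini-Hochberg adjustment over 19 such quantities. Both genes had separated in opposite directions, so their ratio had to separate, and this p adds nothing to the results of the 2 genes. Sprr3, common in wet stratified epithelium, was at 188, 249 and 223 CPM in SA tumors and 482, 639 and 478 CPM in WT samples, again without overlap (log2 fold change −1.28, SE 0.156, adjusted p = 0.000225). Sprr4 was rare, at 0.728 to 0.780 CPM against 1.55 to 3.89 CPM, and its log2 fold change of −1.99 (adjusted p = 0.0023) lay at the edge of the threshold, passing it without SA tumor 1 (−2.03) or WT penis 3 (−2.32).

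**Figure D3:**
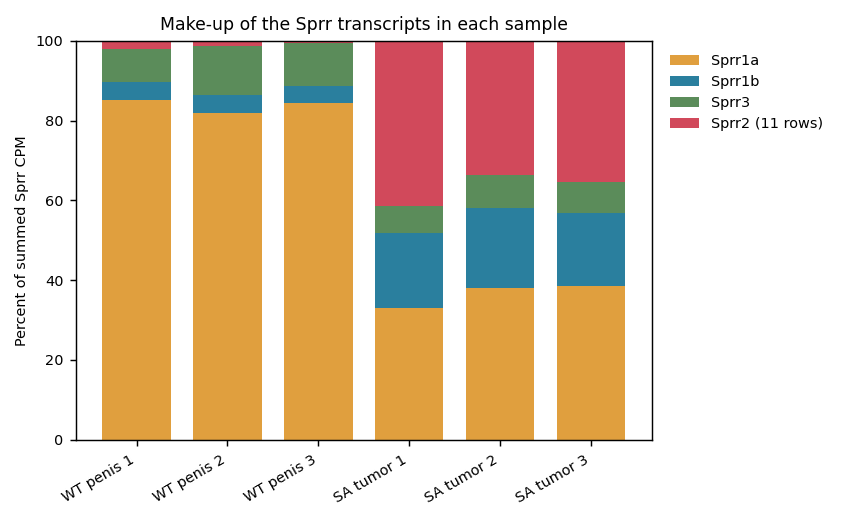
Percent of the summed Sprr CPM (vertical axis) taken by Sprr1a, Sprr1b, Sprr3 and the 11 Sprr2 rows in each of the 3 WT samples and 3 SA tumors; Sprr4 is too small to draw. Sprr1a fills 81.8% to 85.2% of each WT bar, whereas in the SA tumors Sprr1a and Sprr2 each take between 33.0% and 41.5%.

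The make-up of the Sprr transcripts differed between the groups, and their total was 2908 ± 109 CPM in SA tumors and 5093 ± 665 CPM in WT samples. Sprr2 genes held 36.9% ± 4.08 of the Sprr CPM in SA tumors and 1.23% ± 0.678 in WT samples (SD, n = 3). Sprr1a held 36.5% ± 3.04 against 83.8% ± 1.76, and Sprr1b 19.0% ± 0.917 against 4.36% ± 0.172. These shares are of reads and are not corrected for transcript length.

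The Lce genes encode small proteins added to the envelope late in cornification, and most were lower in SA tumors. Of 21, 18 had negative log2 fold changes. Past the thresholds, 5 fell (23.8%, against 3.59% of all genes tested) and 2 rose (9.52%, against 9.41%). The share that rose was thus near that of all genes. Their summed level was 1040, 1311 and 826 CPM in SA tumors and 4472, 2967 and 2749 CPM in WT samples, without overlap. The median log2 fold change of the 21 was −1.51. Within the Lce1 group, 2 neighbouring stretches differed in the size of the change. The 9 genes from Lce1a1 to Lce1h had log2 fold changes from −1.94 to −0.27 and 5 of them had an adjusted p under 0.01 but missed the fold threshold, and the next 4 along the chromosome, Lce1i, Lce1j, Lce1k and Lce1l, had −2.26 to −2.79 and all fell. Summed, the 9 were at 351 ± 131 CPM in SA tumors and 827 ± 213 CPM in WT samples, and the 4 were at 81.4 ± 31.0 CPM against 468 ± 133 CPM (SD, n = 3). The difference between the 2 stretches was seen after the values were known and was not tested.

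Lce1k had the largest decrease of the Lce genes, at 15.6, 21.4 and 10.1 CPM in SA tumors and 141, 91.7 and 90.8 CPM in WT samples (log2 fold change −2.79, SE 0.310, adjusted p = 0.000275). Lce1l was at 15.6, 25.8 and 10.4 CPM against 151, 109 and 84.1 CPM (log2 fold change −2.74, SE 0.381). Lce1i was at 26.3, 36.0 and 17.7 CPM against 192, 124 and 110 CPM (log2 fold change −2.42, SE 0.314). In these 3 genes the order of the samples was alike, with WT penis 1 the highest of all, SA tumor 2 the highest of the tumors and SA tumor 3 the lowest. The same order among tumors ran through the family, since SA tumor 2 was the highest tumor in 20 of 21 Lce genes and SA tumor 3 the lowest in 21 of 21. WT penis 1 was the highest WT sample in 20 of 21. The same orders were not counted over all genes tested, so they cannot be called a trait of the family. Lce1a2, within the stretch of 9, had a log2 fold change of −1.94 and passed the thresholds without SA tumor 2 (−2.29), WT penis 2 (−2.02) or WT penis 3 (−2.09). Lce1f changed least of the Lce1 genes, at −0.27, a sign that turned to 0.02 when libraries were scaled by their totals alone.

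The Lce3 genes, which in human skin are known for their response to barrier damage, were lower in SA tumors in 5 of 6 cases. Lce3f was at 136, 151 and 120 CPM in SA tumors and 937, 617 and 572 CPM in WT samples, and fell (log2 fold change −2.39, SE 0.201, adjusted p = 3.28e-05). Lce3a was at 118, 125 and 93.3 CPM against 556, 358 and 353 CPM, a log2 fold change of −1.91 that passed the thresholds without SA tumor 2 (−2.004), WT penis 2 (−2.04) or WT penis 3 (−2.05). Lce3b was at 130, 130 and 97.0 CPM against 468, 278 and 271 CPM (log2 fold change −1.51, SE 0.232). No SA value of the 3 genes reached the WT range. Lce3c and Lce3e had similar log2 fold changes of −1.61 and −1.58, whereas Lce3d was at 56.8, 72.1 and 53.7 CPM against 73.4, 41.8 and 35.7 CPM, with overlapping groups (log2 fold change 0.28, adjusted p = 0.418). Lce3 transcripts shared a median of 33.0% of their 76-base windows with other transcripts (5.95% to 45.5%), so reads may be split or lost between them; for Lce1 the median was 6.09% (0 to 13.4%).

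The 2 Lce genes that rose were rare and stood outside the 2 runs. Lce6a was at 5.24, 8.38 and 3.44 CPM in SA tumors and 0.452, 1.00 and 0.501 CPM in WT samples (log2 fold change 3.07, SE 0.444, adjusted p = 0.000569). Lce1m, which lies apart from the other Lce1 genes, beyond the Lce3 run, was at 1.41, 3.48 and 1.05 CPM against 0.316, 0.234 and 0.228 CPM (log2 fold change 2.90, SE 0.568, adjusted p = 0.00286). Both kept the tumor order of the family, with SA tumor 2 the highest. Lce1m missed the adjusted p threshold without WT penis 1 (0.0131), WT penis 2 (0.0147) or WT penis 3 (0.0134).

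Of the 12 S100a genes tested, 3 rose and 9 did neither, 3 of the 9 being lower at an adjusted p under 0.01 (S100a10, S100a14 and S100a16). S100a8 was at 734, 582 and 1034 CPM in SA tumors and 63.5, 41.9 and 32.8 CPM in WT samples (log2 fold change 4.09, SE 0.322, adjusted p = 4.53e-05). S100a9 was at 976, 803 and 1368 CPM against 53.0, 33.0 and 22.1 CPM (log2 fold change 4.86, SE 0.387, adjusted p = 6.11e-05). The lowest tumor was above the highest WT penis by a wide margin for both, and both ranked the tumors alike, with SA tumor 3 the highest and SA tumor 2 the lowest. The ratio of S100a9 to S100a8 CPM was 1.33, 1.38 and 1.32 in the tumors and 0.835, 0.789 and 0.675 in the WT samples, so the difference was larger for S100a9 in these samples (exact two-sided permutation p = 0.1, the smallest possible here, and 0.136 adjusted over the 19 sums, shares and ratios computed). Together they made up 41.6% ± 10.2 of the S100a CPM in SA tumors and 2.84% ± 0.669 in WT samples (SD, n = 3). Without them, the S100a sum was 2552 ± 393 CPM against 2742 ± 385 CPM, a difference within the spread between samples (exact two-sided permutation p = 0.6, adjusted 0.671).

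Most tested neutrophil markers were higher in SA tumors, as S100a8 and S100a9 were. Of 11 neutrophil genes in the files, 7 were tested and 6 of these rose, and their summed level was 63.3 to 146 CPM in SA tumors and 13.7 to 56.6 CPM in WT samples, most of the WT signal being Ltf, which epithelium also makes. Csf3r, the receptor for granulocyte colony-stimulating factor, was at 19.1, 28.4 and 63.4 CPM against 1.76, 1.77 and 1.05 CPM. Csf3r and the summed list were highest in SA tumor 3, as were S100a8 and S100a9. The lowest tumor was SA tumor 1 for Csf3r and the summed list, and SA tumor 2 for S100a8 and S100a9. The granule genes of immature neutrophils, Camp, Ngp, Mpo and Elane, were at or under 0.260 CPM in every sample. What neutrophils contributed to the S100a8 and S100a9 counts was not tested, and the order of 3 tumors cannot show it.

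S100a3, which encodes a protein concentrated in the cuticle of the hair, was at 57.5, 107 and 21.2 CPM in SA tumors and 1.85, 2.24 and 1.69 CPM in WT samples. All 3 tumors were above all WT samples, but they spread over 5-fold, with SA tumor 2 highest (log2 fold change 4.99, SE 0.673, adjusted p = 0.00118). Without WT penis 2 or WT penis 3 the adjusted p was 0.0112 or 0.0128, above the threshold of 0.01. The 7 hair cortex and cuticle keratins listed as markers went the other way in sum, at 167 to 344 CPM in SA tumors and 1654 to 2323 CPM in WT samples, with 4 of 7 falling; Krt33a was the one with higher values in SA tumors (51.3 to 114 CPM against 18.6 to 30.4 CPM). S100a3 and all 7 of these keratins had their lowest tumor value in SA tumor 3. So did 34 of the 54 tested members, and the order was not counted over all genes tested, so it does not link S100a3 to these keratins.

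The remaining S100a genes did not pass both thresholds. S100a6, which encodes calcyclin, was at 1073, 1337 and 904 CPM in SA tumors and 787, 628 and 594 CPM in WT samples (log2 fold change 0.72, SE 0.171, adjusted p = 0.00757). S100a14 was at 376, 401 and 317 CPM against 795, 658 and 610 CPM (log2 fold change −0.92, SE 0.139, adjusted p = 0.000738), and S100a16, its neighbour, had a log2 fold change of −0.81. Neither S100a6 nor S100a14 overlapped between the groups. S100a10, which pairs with annexin A2, was at 131, 136 and 120 CPM against 340, 310 and 283 CPM (log2 fold change −1.27, SE 0.106). Its partner gene Anxa2 was at 722, 803 and 648 CPM against 2028, 1692 and 1649 CPM (−1.31, SE 0.133). Of the other annexins listed, Anxa1 had −0.78, Anxa6 −0.52 and Anxa11 0.12. The adjusted p was above 0.01 for S100a1 (0.19), S100a11 (0.32), S100a7a (0.58), S100a13 (−0.19) and S100a4 (−0.10), log2 fold changes in parentheses; the last 2 turned to 0.10 and 0.19 when scaled by library totals alone, and S100a4 also to 0.080 without SA tumor 1 and 0.074 without WT penis 1. S100a4 and S100a11 also shared 44.7% and 37.6% of their 76-base windows with other transcripts, so their counts are less certain.

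**Figure D4:**
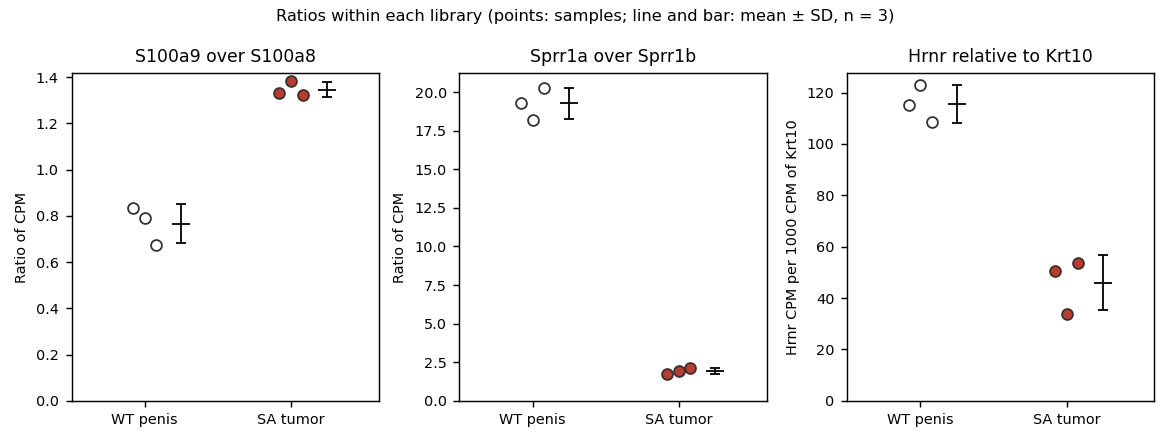
Ratios within each library for the 3 WT samples (open) and 3 SA tumors (filled), with mean and SD beside the points: S100a9 over S100a8 CPM, Sprr1a over Sprr1b CPM, and Hrnr CPM per 1000 CPM of the suprabasal keratin Krt10. The groups are separate in each panel, with means of 1.34 against 0.766, 1.92 against 19.3 and 46.0 against 116 (SA tumors first).

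Markers of cornifying keratinocytes were lower in sum in SA tumors. Over Krt1, Krt10, Krt2, Krt77, Krt78, Dsg1a and Dsc1 they reached 11331 to 18018 CPM in SA tumors and 45084 to 50307 CPM in WT samples, with SA tumor 2 highest and SA tumor 3 lowest among the tumors, the same order as the Lce genes. Krt1 and Krt10 make up most of that sum, 1 of the 7 fell past the thresholds (Krt78), and Dsc1 ran against it without overlap, at 459 to 699 CPM in the tumors and 269 to 345 CPM in the WT samples (log2 fold change 0.77, adjusted p = 0.00829), as did Krt2 with overlap (0.60). The wound and non-cornifying keratins Krt4, Krt13, Krt6a, Krt6b, Krt16 and Krt17 summed to 14121 to 15888 CPM in SA tumors and 8260 to 11075 CPM in WT samples, and 2 of the 6 rose (Krt6b and Krt17). Krt13 in that list was lower without overlap, at 337 to 529 CPM in the tumors and 1443 to 1784 CPM in the WT samples (log2 fold change −1.80, adjusted p = 8.56e-05), and Krt6a had −0.34. Smooth muscle genes stood at 34.9 to 120 CPM in SA tumors and 1476 to 1966 CPM in WT samples, with 5 of 5 falling, so the WT samples, named as epithelium in the protocol, held other tissue too. The part that these differences in tissue make-up had in the members' values was not tested.

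Krt10 itself was lower in SA tumors (log2 fold change −1.97, SE 0.205). Ratios to Krt10 in the same library therefore largely restate how far each gene's fold change lay from that value. Another reference from the marker list would shift them, as Krt1 had −1.63. Ivl stood at 2.10 ± 0.380 CPM per 1000 CPM of Krt10 in SA tumors and 1.96 ± 0.279 in WT samples, Sprr1a at 173 ± 39.0 against 171 ± 16.8, and Crnn at 17.9 ± 3.48 against 17.1 ± 2.08 (SD, n = 3). For these 3 genes the groups overlapped, with mean differences below the SD of either group. Hrnr stayed lower relative to Krt10, at 50.5, 33.9 and 53.6 in SA tumors against 115, 123 and 108 in WT samples, as did Lce1k at 2.43 ± 0.390 against 4.28 ± 0.817 and, by a small margin, Lor at 88.5 ± 2.01 against 110 ± 7.82, each without overlap. Rptn turned the other way, at 447, 348 and 398 in SA tumors against 199, 256 and 241 in WT samples. Lce3f gave 21.8 ± 3.33 against 28.1 ± 5.84, with overlap. Of these 8 ratios, 4 reached an exact permutation p of 0.1 (0.136 adjusted over the 19 quantities), the smallest possible, and the other 4 had p from 0.3 to 1.0 (adjusted 0.38 to 1.0).

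Genes that work with the members outside the families were followed as lists. Of 17 tested cornified envelope partners, 3 rose, 2 fell and 12 did neither, with a median log2 fold change of −1.21; the lower count was 4 without WT penis 3, 3 without SA tumor 2, SA tumor 3 or WT penis 2, and 1 with library totals alone. Tchh, which encodes trichohyalin of the inner root sheath and lies between the members on chromosome 3, was at 1976, 2071 and 996 CPM in SA tumors and 23.0, 18.2 and 17.5 CPM in WT samples (log2 fold change 6.43, SE 0.338). Its neighbour Tchhl1 rose from 0.271, 0.0668 and 0.273 CPM in WT samples to 54.2, 44.3 and 26.1 CPM in SA tumors (log2 fold change 7.74, SE 0.460). The WT values of Tchhl1 rest on 6, 2 and 6 counts, near the floor of 3, so the size of its change is less certain. Tchh and Tchhl1 are fused S100-type genes by structure. Both had positive log2 fold changes, as did the member Flg2 (1.66), where those of Hrnr, Rptn and Crnn were negative. Sbsn, which encodes suprabasin, fell (log2 fold change −3.14, SE 0.175), and so did Kprp (−2.19, SE 0.164), a keratinocyte proline-rich protein gene that also lies within the complex. Among the 13 other genes lying between the outermost members, 8 were tested, of which 2 rose (Tchh and Tchhl1) and 2 fell (Kprp and 2310050C09Rik), so both directions occurred among non-members of the interval too.

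Of 18 regulators of keratinocyte differentiation, 1 fell and 17 did neither, with a median log2 fold change of −0.52; 1 rose without SA tumor 3, without WT penis 3 or with library totals alone. The one was Hopx, a homeodomain-only cofactor of differentiating keratinocytes, at 73.8, 89.3 and 91.8 CPM in SA tumors against 546, 505 and 558 CPM (log2 fold change −2.66, SE 0.120, adjusted p = 2.11e-06). Klf4, a transcription factor required for the skin barrier, had a log2 fold change of −1.05 (SE 0.201, adjusted p = 0.00256). Of 12 tested S100 partners, receptors and S100 genes outside the complex, 1 rose (S100g, log2 fold change 5.23, SE 0.920) and 1 fell (S100b, −2.15, SE 0.396), but neither call was stable. The higher count went from 1 to 0 without WT penis 1, WT penis 2 or WT penis 3 and under limma-voom, and the lower count went to 0 without SA tumor 1, SA tumor 2 or WT penis 1 and with library totals alone. Ahnak, a scaffold bound by S100a10 and annexin A2, had a log2 fold change of −1.80 (SE 0.137), where the median of the 12 was −0.37.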

How the data were processed

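Paired-end, stranded RNA sequencing of fresh tissue (total RNA) gave 1 file per sample. The authors used TopHat for alignment (mm10) and HTSeq for counting; the deposited counts are unnormalized, per RefSeq transcript, and the versions are not given in the sources used here. FPKM and TPM values were computed by the authors from the same counts; FPKM served here only to recover transcript length, and TPM was not tested.

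Each symbol was represented by its transcript row with the highest mean count. Counts were fitted in R 4.3.3 with edgeR 4.0.16 (TMM, filterByExpr with a minimum of 10 counts, robust quasi-likelihood F-test, Benjamini-Hochberg adjustment over 16336 genes), with the thresholds of the study (adjusted p 0.01, log2 fold change 2). All adjusted p-values given for genes are from that fit. CPM is the count per 1000000 counts of the TMM-scaled library. The script was tested on simulated data. Single sums, shares and ratios were compared by the exact two-sided permutation test. DESeq2 1.42.0, limma-voom (limma 3.58.1) and further alternatives are given at the end.

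Members, gene lists, marker lists and motifs were chosen with earlier results of these data known. All members are described. Values in every sample are given for the precursor and fused genes, S100a8 and S100a9. They are also given in each family for the 3 members of highest mean CPM and the 3 past both thresholds with the largest changes in each direction. Sprr2b, Sprr2k, Sprr2d, Lce3d, S100a10 and its partner gene Anxa2 were added after their values were seen. Read sharing was the percent of 76-base windows of a transcript found in transcripts of another gene (GENCODE M21). Protein sequences were not analysed here.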

Additional observations from a re-analysis of the deposited data

How the results depend on the processing

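Under 17 alternatives (other scalings, filters and tools, a replicate block, summed transcript rows, and each sample left out in turn) the number of members higher in SA tumors was 9 to 16 (13 as reported) and lower 1 to 13 (8 as reported). Scaling by library totals alone gave 14 higher and 5 lower, and moved the signs of S100a13 (0.10), S100a4 (0.19) and Lce1f (0.016), all with adjusted p-values above the threshold. Testing against the fold threshold itself (glmTreat) gave 9 higher and 1 lower (Hrnr), and 749 and 180 genes in all against 1537 and 587; this test asks for a larger effect by construction. DESeq2 gave 16 and 9. Leaving out single samples gave 9 to 15 higher and 7 to 13 lower, and S100a4 ranged from -0.26 to 0.080 on the log2 scale, above 0 without SA tumor 1 or WT penis 1; the cause was not tested. The replicate block gave 13 higher and 8 lower and the same call for 54 of 54 members. Same-numbered samples did not deviate together (correlations -0.13, -0.10 and 0.02). With so few samples per group this cannot exclude pairing, and the labels do not say that the numbers mark pairs. Depth limits the rarest members (Sprr2a1, Sprr2a2, Sprr4, Lce1m), and read sharing limits Sprr2a1, Sprr2a2 and the Lce3 genes.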

Other observations

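The simple-epithelium keratins were close to silent in WT samples and present in SA tumors. Krt8 had mean levels of 220 CPM in SA tumors and 1.55 CPM in WT samples, and Krt18 had 242 against 0.894 CPM (log2 fold changes 7.14 and 8.08), and Epcam rose too, so 3 of the 5 pan-epithelial genes rose; the sum of the 5 was nonetheless lower, at 4429 to 5093 CPM against 8350 to 9545 CPM, most of it Dsp (log2 fold change -1.23, adjusted p = 7.75e-05). Of 6 basal keratinocyte genes, 2 fell, Krt15 (-3.61) and Col17a1 (-2.74), while the sum of the 6 was 9453 to 11798 CPM against 20532 to 22604 CPM. Of 4 T cell genes 1 rose (Lck, 2.07; 0 rose without WT penis 3), and of 4 skeletal muscle genes 1 fell (Ckm, -3.71). The macrophage (5 genes), fibroblast (5) and endothelium (4) lists held no gene past both thresholds in the edgeR fit, nor by DESeq2 or limma-voom. At an unadjusted p under 0.05 they held 0, 2 and 2; without SA tumor 3, 1 fibroblast and 1 endothelium gene fell, as did 1 endothelium gene without WT penis 3. Their summed levels were 110 to 264 against 168 to 235 CPM, 970 to 3108 against 3684 to 4010 CPM and 119 to 181 against 196 to 251 CPM.

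Among the WT samples, WT penis 1 was the highest in 47 of the 54 tested members and WT penis 3 the lowest in 46, across families that differ between tumor and normal tissue in opposite directions. Among the tumors, SA tumor 2 was the highest in 40 of 54 and SA tumor 3 the lowest in 34. These orders were not counted over all genes tested. Whether they belong to the members or to the libraries as a whole therefore cannot be told.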
